A study of Caenorhabditis elegans with 6 samples.

Results

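The genes described here are the nuclear-encoded genes of the respiratory chain and of the mitochondrial ribosome in Caenorhabditis elegans, as recovered by iCLIP from early embryos. Members were every gene whose symbol in the deposited count table starts with nuo-, ucr-, cco-, cox-, atp-, mrpl- or mrps-. The prefixes matched 87 gene identifiers, of which 1, atp-6, lies in the mitochondrial genome and was set apart. The 86 nuclear members, of 46646 genes in the table and 9268 genes with a read in any library, were 20 respiratory chain genes and 66 mitochondrial ribosome genes (39 of the large subunit, 27 of the small subunit).

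The respiratory chain passes electrons from NADH through complexes I, III and IV to oxygen and pumps protons across the inner mitochondrial membrane, and ATP synthase uses that gradient to make ATP. Most subunits of these complexes are encoded in the nucleus, translated in the cytoplasm and imported, while a small core is encoded by mitochondrial DNA and translated by the mitochondrial ribosome, whose proteins are themselves nuclear-encoded. In early embryos the mitochondria are inherited from the oocyte, and much of the mRNA is maternal.

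In iCLIP, ultraviolet light links proteins to the RNA they touch in living embryos, the protein is pulled down, and the short RNA pieces held by it are sequenced. Embryos were mixed early stages of C. elegans, irradiated 3 times with 400 mJ/cm2, and pulled down with an antibody to GFP. The MEG-3::GFP group expressed MEG-3, a disordered protein of the gel phase of P granules (the germ granules of the worm), tagged at its own locus on chromosome X (allele ax3054, tag meGFP). The PGL-1::GFP group expressed PGL-1, a protein of the liquid phase of P granules, tagged at its own locus on chromosome IV (allele ax3122). The GFP group expressed GFP alone. The strain behind the GFP libraries is not given in the sources used here, although the study lists a line that makes GFP from the germline promoter of pie-1 in an unc-119(ed3) background (transgene axIs1374). Each group had 2 libraries. All 3 groups carried GFP and were pulled down with the same antibody, so a level in a tagged group is read against what GFP alone recovered.

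The libraries differed in depth and in how many genes they reached. MEG-3::GFP replicates 1 and 2 held 225609 and 280007 reads on 3130 and 6461 genes, PGL-1::GFP held 21180 and 92593 reads on 1025 and 7961 genes, and GFP held 26531 and 14040 reads on 4170 and 2013 genes. Levels are given as reads or as CPM, reads scaled to 1000000 reads counted on genes in that library. In CPM, the 3 reads that a count of 0 still allows amount to 13.3 and 10.7 with MEG-3::GFP, 142 and 32.4 with PGL-1::GFP and 113 and 214 with GFP, so a gene at 0 in a small library may still have a sizeable level. All 8 early embryonic and maternal mRNAs used to check the stage had reads in both MEG-3::GFP libraries (0.814% and 1.01% of all reads), against 6 and 8 of them with PGL-1::GFP (0.873% and 0.362%) and 8 and 4 with GFP (1.55% and 0.228%). The 3 muscle markers together took up to 0.0107% of reads with MEG-3::GFP, up to 0.0443% with PGL-1::GFP, and 0.0528% and 0.199% with GFP. The 4 intestine and 3 hypodermis markers had 0 reads with MEG-3::GFP, at most 1 read a list with PGL-1::GFP and at most 9 with GFP, and the sperm markers had 0 throughout.

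Only 3 members, all of the respiratory chain, reached 60 reads in both MEG-3::GFP libraries: atp-2, atp-5 and ucr-1. The threshold of 60 reads is the one the study drew from the GFP background. They are 3 of 20 respiratory genes and 3.49% of all 86 members, while 7.09% of the genes with a read in any library passed. In PGL-1::GFP only atp-2 reached it, 1.16% of members, against 0.194% of genes with a read. No mitochondrial ribosome member reached it in both libraries of either tagged protein, although mrpl-44, a large subunit gene that carries its symbol in RefSeq and not in the deposited table, did so with MEG-3::GFP (88 and 63 reads, against 1 and 17 with PGL-1::GFP and 11 and 2 with GFP). In CPM, mrpl-44 had 390 and 225 with MEG-3::GFP and 415 and 142 with GFP, so these groups overlapped. No member reached 60 reads in both GFP libraries, where that count corresponds to 2262 and 4274 CPM. Since the RNA came from whole embryos, more transcript per cell, more cells with the transcript and more contact with the protein cannot be told apart in these counts. Because the threshold counts raw reads, it is a different level in each library: 266 and 214 CPM with MEG-3::GFP, and 2833 and 648 CPM with PGL-1::GFP.

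ATP synthase contributed 4 members, which took 327 and 608 reads with MEG-3::GFP, 118 and 138 with PGL-1::GFP and 40 and 22 with GFP. atp-2 encodes the catalytic beta subunit, the site where ATP is formed (WBGene00000229, WBcel235 chromosome III 5228417 to 5230536). It had 126 and 510 reads with MEG-3::GFP (558 and 1821 CPM), 116 and 66 with PGL-1::GFP (5477 and 713 CPM), and 27 and 11 with GFP (1018 and 783 CPM). The CPM of atp-2 with GFP lay between the 2 values of each tagged protein, so the groups overlapped. Its log2 fold change was 0.77 for MEG-3::GFP over GFP (SE 1.93) and 1.46 for PGL-1::GFP over GFP (SE 1.96).

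atp-5, a subunit of the stalk that holds the catalytic head in place (WBGene00007385, chromosome V 11122901 to 11123867), had 201 and 81 reads with MEG-3::GFP (891 and 289 CPM), 2 and 23 with PGL-1::GFP (94.4 and 248 CPM), and 0 and 8 with GFP (0 and 570 CPM). Both MEG-3::GFP values exceeded both PGL-1::GFP values and overlapped those of GFP. atp-3, another stalk protein, had 0 and 10 reads with MEG-3::GFP, 0 and 30 with PGL-1::GFP, and 0 and 3 with GFP. atp-4, a small peripheral subunit, had 0 and 7 reads with MEG-3::GFP, 0 and 19 with PGL-1::GFP, and 13 and 0 with GFP. For both genes at least 1 library of every group was at 0.

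**Figure D1:**
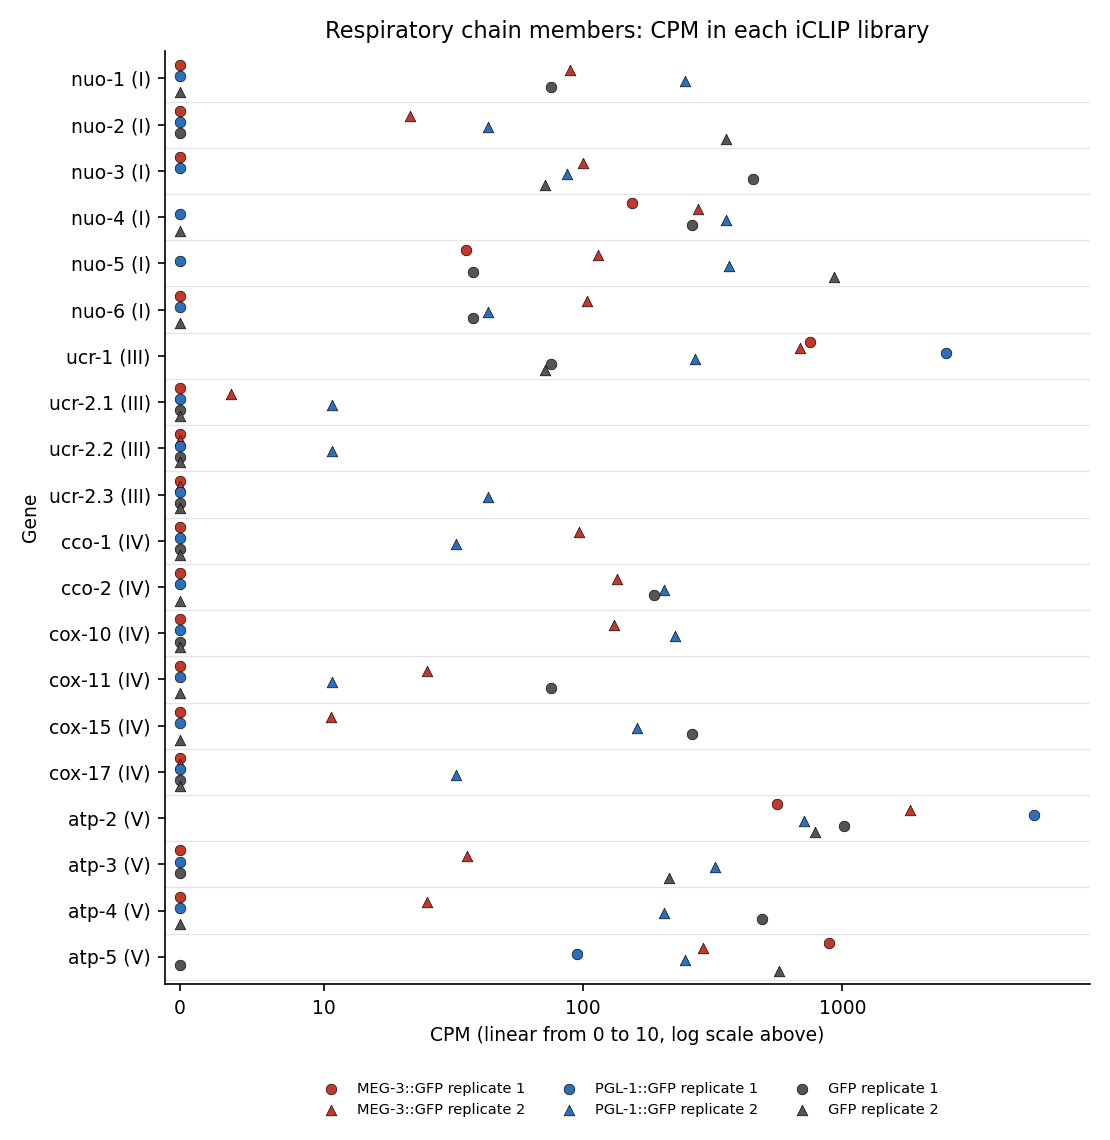
CPM of the 20 respiratory chain members (complex in parentheses, V for ATP synthase) in each of the 6 libraries, circles for replicate 1 and triangles for replicate 2; the axis is linear up to 10 CPM and logarithmic above. ucr-1 is the only gene in which all 4 points of the tagged proteins, from 270 to 2502 CPM, lie right of both GFP points (75.4 and 71.2 CPM), and 15 of the 20 genes sit at 0 in MEG-3::GFP replicate 1.

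ucr-1 encodes a core protein of complex III, the step that takes electrons from ubiquinol to cytochrome c (WBGene00018963, chromosome III 5592135 to 5594401). It had 169 and 192 reads with MEG-3::GFP (749 and 686 CPM), 53 and 25 with PGL-1::GFP (2502 and 270 CPM), and 2 and 1 with GFP (75.4 and 71.2 CPM). No tagged library overlapped a GFP library. Mean CPM was 717 ± 44.8 with MEG-3::GFP, 1386 ± 1579 with PGL-1::GFP and 73.3 ± 2.94 with GFP (SD, n = 2 each). With reads of each group pooled, the share of reads on ucr-1 was 9.66 times that of GFP with MEG-3::GFP (95% exact interval 3.28 to 47.0) and 9.27 times with PGL-1::GFP (3.06 to 45.9). The intervals rest on 3 GFP reads and cover counting error only, without the spread between libraries. They were computed for ucr-1 alone, with its counts already known, so they are a description and not a test. The log2 fold change was 3.60 (SE 2.63) for MEG-3::GFP over GFP and 3.87 (SE 2.66) for PGL-1::GFP over GFP, with adjusted p = 0.9992 and 0.9993 in edgeR's quasi-likelihood test.

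The other core protein of complex III has 3 gene copies, which were barely read. ucr-2.1 had 1 read in MEG-3::GFP replicate 2 and 1 in PGL-1::GFP replicate 2, ucr-2.2 had 1 and ucr-2.3 had 4 in PGL-1::GFP replicate 2, and every other library was at 0. The span of ucr-2.2 shares 1450 bp with col-41, which had 0 reads in all 6 libraries, and 50 bp with pkhm-2, which had 171 and 83 reads with MEG-3::GFP. That of ucr-2.3 shares 16 bp with zer-1, which had 334 and 330 reads with MEG-3::GFP. Whether these overlaps affected the counts was not tested. ucr-2.1 and ucr-2.2 are the only members on chromosome X. Whether reads fit several of the copies, and were lost or split by counting, was not tested, and the level of these 3 genes is uncertain.

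Complex I, the entry point for electrons from NADH, had 6 members and 43 and 198 reads with MEG-3::GFP, 0 and 106 with PGL-1::GFP, and 23 and 19 with GFP. nuo-4, an accessory subunit, had the most with MEG-3::GFP, with 35 and 78 reads (155 and 279 CPM), against 0 and 33 with PGL-1::GFP (0 and 356 CPM) and 7 and 0 with GFP (264 and 0 CPM). nuo-5, the large iron-sulfur subunit, had 8 and 32 reads with MEG-3::GFP (35.5 and 114 CPM), 0 and 34 with PGL-1::GFP (0 and 367 CPM), and 1 and 13 with GFP (37.7 and 926 CPM). In both genes the groups overlapped.

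The other 4 complex I genes were at 0 in MEG-3::GFP replicate 1 and in PGL-1::GFP replicate 1. nuo-1, the subunit that binds NADH, had 25 reads in MEG-3::GFP replicate 2, 23 in PGL-1::GFP replicate 2, and 2 and 0 with GFP. nuo-2, a core subunit of the matrix arm, had 6 reads in the second MEG-3::GFP library, 4 in the second PGL-1::GFP library, and 0 and 5 with GFP. nuo-3, an accessory subunit, had 28 reads in MEG-3::GFP replicate 2, 8 in PGL-1::GFP replicate 2, and 12 and 1 with GFP. Of its span of 1042 bp, 1021 bp are shared with another annotated protein-coding gene, so its reads may belong to either. nuo-6, an accessory subunit known for the long life of worms that carry a mutant allele, had 29 reads in MEG-3::GFP replicate 2, 4 in PGL-1::GFP replicate 2, and 1 and 0 with GFP.

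Complex IV, which reduces oxygen, was represented by 2 structural subunits and 4 assembly factors. Their summed reads were 0 and 112 with MEG-3::GFP, 0 and 62 with PGL-1::GFP, and 14 and 0 with GFP, so that 1 library of each group held none. cco-1, whose knockdown is known to switch on the mitochondrial unfolded protein response in worms, had 27 reads in MEG-3::GFP replicate 2, 3 in PGL-1::GFP replicate 2 and 0 with GFP. cco-2, another structural subunit of the enzyme, had 38 reads in MEG-3::GFP replicate 2, 19 in PGL-1::GFP replicate 2, and 5 and 0 with GFP. Among the factors known from yeast to build the haem and copper centres, cox-10 had 37 reads in MEG-3::GFP replicate 2, 21 in PGL-1::GFP replicate 2 and 0 with GFP. cox-15, the haem A synthase, had 3 reads in MEG-3::GFP replicate 2, 15 in PGL-1::GFP replicate 2, and 7 and 0 with GFP. The copper factor cox-11 had 7 in MEG-3::GFP replicate 2, 1 in PGL-1::GFP replicate 2, and 2 and 0 with GFP. cox-17, the copper chaperone, was read only 3 times, in PGL-1::GFP replicate 2.

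The 3 genes atp-2, atp-5 and ucr-1 held 92.0% and 70.5% of respiratory reads with MEG-3::GFP, 100% and 33.8% with PGL-1::GFP, and 36.7% and 47.6% with GFP. They were picked by their reads in MEG-3::GFP, so these shares are a description and are not compared between groups. Without them the other 17 respiratory genes shared 43 and 328 reads with MEG-3::GFP, 0 and 223 with PGL-1::GFP, and 50 and 22 with GFP. Over all genes, these 3 ranked 227 to 503 in MEG-3::GFP replicate 1 and 47 to 883 in replicate 2, counting from the gene with the most reads.

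atp-1, the alpha subunit that pairs with atp-2 in the catalytic head, was not matched by the prefixes because the deposited table gives it no such symbol, and it is described here outside the count of members. By its RefSeq symbol (chromosome I 12652277 to 12654655) it had 507 and 520 reads with MEG-3::GFP (2247 and 1857 CPM), 6 and 118 with PGL-1::GFP (283 and 1274 CPM), and 42 and 1 with GFP (1583 and 71.2 CPM). In each MEG-3::GFP library it had more reads than atp-2, atp-5 or ucr-1, and so lay past 60 reads in both. atp-6, the subunit of the proton channel that mitochondria make themselves, had 133 and 7 reads with MEG-3::GFP, 0 and 19 with PGL-1::GFP, and 1 and 0 with GFP.

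The mitochondrial ribosome genes were low in every library. Their highest counts were 90 and 37 reads with MEG-3::GFP, 35 and 16 with PGL-1::GFP, and 8 and 2 with GFP. The whole group of 66 genes took 196 and 417 reads with MEG-3::GFP, 46 and 203 with PGL-1::GFP, and 83 and 4 with GFP. The large subunit had 41 and 245 of these with MEG-3::GFP, 41 and 105 with PGL-1::GFP, and 58 and 3 with GFP. The small subunit had 155 and 172 with MEG-3::GFP, 5 and 98 with PGL-1::GFP, and 25 and 1 with GFP. Of the 66 genes, 4 had no read in any library (mrpl-14, mrps-7, mrps-12 and mrps-23). The whole span of mrps-23, 552 bp, lies in prp-40, which had 182 and 10 reads with MEG-3::GFP, 0 and 18 with PGL-1::GFP, and 4 and 6 with GFP, so its 0 may come from how reads in both genes were counted, which was not tested.

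mrps-5, a small subunit protein whose knockdown is known to lengthen the life of worms, had the most reads of the 66. It had 90 and 6 reads with MEG-3::GFP (399 and 21.4 CPM), 0 and 8 with PGL-1::GFP (0 and 86.4 CPM), and 1 and 0 with GFP (37.7 and 0 CPM). It exceeded 60 reads in MEG-3::GFP replicate 1 alone, and its 2 MEG-3::GFP values lay on either side of that of GFP replicate 1. mrps-16, also of the small subunit, had 34 and 26 reads with MEG-3::GFP (151 and 92.9 CPM), against 0 and 6 with PGL-1::GFP and 0 and 0 with GFP. Its mean with MEG-3::GFP, 122 ± 40.9 CPM (SD, n = 2), is not above what 3 reads would give in GFP replicate 2, so no fold is given. Its span shares 175 bp with ilcr-2, which had 107 and 55 reads with MEG-3::GFP, 0 and 13 with PGL-1::GFP, and 9 and 0 with GFP, and whether reads of one gene were counted for the other was not tested.

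Most of the other mitochondrial ribosome genes with high means rested mainly on 1 library. In MEG-3::GFP, mrpl-15 had 0 and 37 reads, mrps-35 had 0 and 35, and mrpl-2 had 26 and 4. In GFP, mrpl-15 had 0 and 0 reads, mrps-35 had 5 and 0, and mrpl-2 had 1 and 0. In PGL-1::GFP, mrpl-46 had 35 and 5 reads (1653 CPM in replicate 1), against 0 and 0 with GFP, and its 35 reads were 76.1% of all mitochondrial ribosome reads of that library. mrpl-9 had 4 and 0 reads with PGL-1::GFP and 1 and 0 with GFP, and mrpl-45 had 0 and 16 with PGL-1::GFP and 6 and 0 with GFP. The highest means with GFP were those of mrpl-24 (8 and 1 reads, against 0 and 7 with MEG-3::GFP and 0 and 2 with PGL-1::GFP), mrpl-45, and mrpl-49 (2 and 2 reads, against 0 and 1 with MEG-3::GFP and 0 and 0 with PGL-1::GFP). The remaining 56 genes had at most 18 and 31 reads with MEG-3::GFP, 3 and 15 with PGL-1::GFP, and 5 and 1 with GFP.

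**Figure D2:**
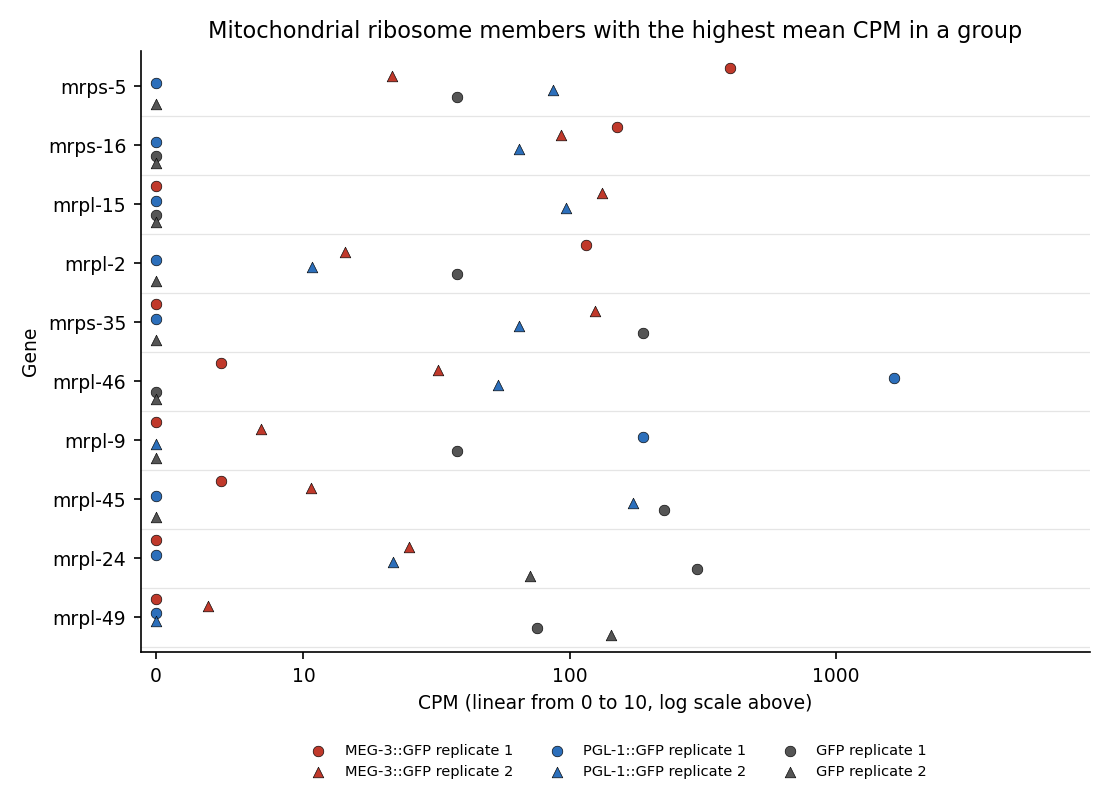
CPM of the 10 mitochondrial ribosome members with the highest mean CPM with MEG-3::GFP, PGL-1::GFP or GFP, in each of the 6 libraries, circles for replicate 1 and triangles for replicate 2; the axis is linear up to 10 CPM and logarithmic above. Most genes stand out in 1 library, as mrps-5 does at 399 CPM in MEG-3::GFP replicate 1 and mrpl-46 at 1653 CPM in PGL-1::GFP replicate 1.

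As shares of all reads, respiratory members took 0.239% (95% Wilson interval 0.220 to 0.260) and 0.397% (0.374 to 0.421) with MEG-3::GFP, 0.807% (0.695 to 0.937) and 0.364% (0.327 to 0.405) with PGL-1::GFP, and 0.298% (0.239 to 0.371) and 0.299% (0.221 to 0.404) with GFP. Mitochondrial ribosome members took 0.0869% (0.0755 to 0.0999) and 0.149% (0.135 to 0.164) with MEG-3::GFP, 0.217% (0.163 to 0.290) and 0.219% (0.191 to 0.252) with PGL-1::GFP, and 0.313% (0.252 to 0.388) and 0.0285% (0.0111 to 0.0732) with GFP. The 2 respiratory shares with MEG-3::GFP lay on both sides of GFP. The mean difference was 0.0194 percentage points for respiratory genes (0.318 ± 0.112% with MEG-3::GFP and 0.298 ± 0.000976% with GFP, SD, n = 2 each) and -0.0528 points for mitochondrial ribosome genes (0.118 ± 0.0439% with MEG-3::GFP and 0.171 ± 0.201% with GFP), both with p = 1 in a two-sided exact permutation test. With 2 libraries against 2, the smallest p this test can give is 0.333. That p was reached in 2 of the 6 share comparisons, where the groups did not overlap. The respiratory share was higher in both PGL-1::GFP libraries than in both GFP libraries, by 0.287 points on average (0.586 ± 0.314% with PGL-1::GFP and 0.298 ± 0.000976% with GFP), and by 0.0678 points without atp-2 or 0.0655 points without PGL-1::GFP replicate 1. The mitochondrial ribosome share was lower in both MEG-3::GFP libraries than in both PGL-1::GFP libraries, with a difference of -0.100 points (0.118 ± 0.0439% with MEG-3::GFP and 0.218 ± 0.00145% with PGL-1::GFP). After adjustment over the 6 comparisons p was 1 for each exact test. The other 2 differences were -0.268 points for respiratory genes in MEG-3::GFP minus PGL-1::GFP (exact p = 0.667) and 0.0475 points for mitochondrial ribosome genes in PGL-1::GFP minus GFP (exact p = 1). For MEG-3::GFP minus GFP, leaving out 1 library turned the direction of the respiratory difference (-0.0595 points without MEG-3::GFP replicate 2) and of the mitochondrial ribosome difference (0.0894 points without GFP replicate 1). For PGL-1::GFP minus GFP it turned that of the mitochondrial ribosome difference (-0.0946 points without GFP replicate 2).

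**Figure D3:**
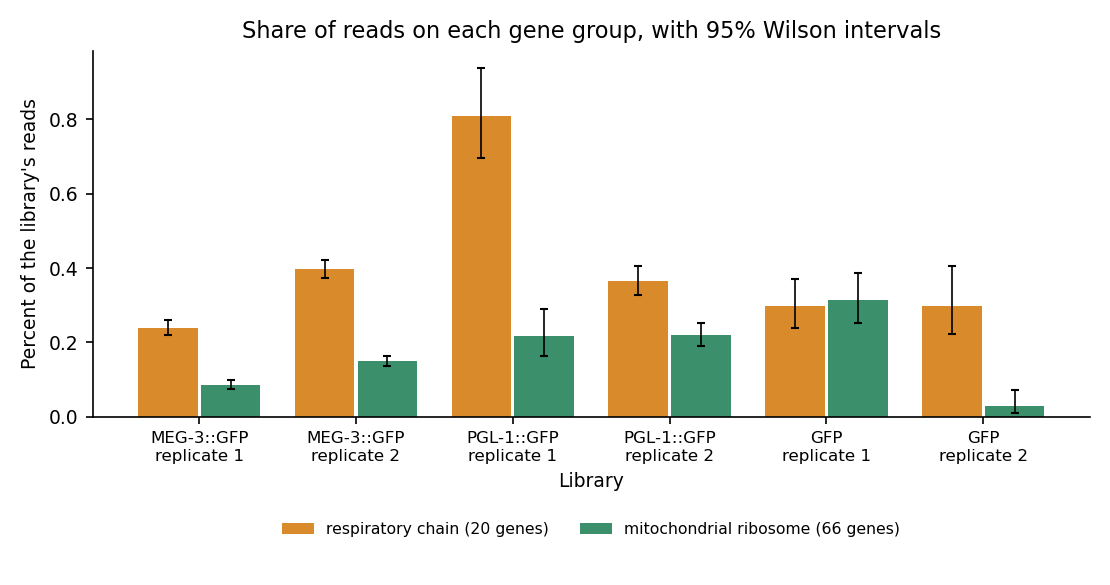
Percent of each library's reads on the 20 respiratory chain genes and the 66 mitochondrial ribosome genes; bars start at 0 and whiskers are 95% Wilson intervals, which cover counting error only. Respiratory genes take 0.239% to 0.807% of reads in every library, and the mitochondrial ribosome genes range from 0.0285% to 0.313% between the 2 GFP libraries alone.

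Mean CPM per gene was higher for respiratory members than for mitochondrial ribosome members in all 6 libraries. In some libraries most respiratory reads lay on a few genes. Mean CPM per respiratory gene was 9.08 and 8.79 times that per mitochondrial ribosome gene with MEG-3::GFP, 12.3 and 5.48 times with PGL-1::GFP, and 3.14 and 34.65 times with GFP. The value of GFP replicate 2 rests on 4 mitochondrial ribosome reads. Other protein-coding genes with a read averaged 118 and 119 CPM with MEG-3::GFP, 119 and 106 with PGL-1::GFP, 114 and 101 with GFP. In the same order, mean CPM per respiratory gene was 119 and 198, 404 and 182, 149 and 150. Per mitochondrial ribosome gene it was 13.2 and 22.6, 32.9 and 33.2, 47.4 and 4.32, below the other genes in each library. Respiratory genes were close to the other genes in MEG-3::GFP replicate 1. For the 17 respiratory genes other than atp-2, atp-5 and ucr-1, mean CPM was 0.852 and 3.05 times that per mitochondrial ribosome gene with MEG-3::GFP. It was 0 and 4.26 times with PGL-1::GFP, and 2.34 and 21.4 times with GFP. These 3 were picked by their MEG-3::GFP reads and taken from 1 side only, so a lower ratio was partly built in. With the member with the most reads taken from each group (atp-2 and mrps-5), the ratio was 13.3 and 5.00 with MEG-3::GFP. It was then 4.09 and 4.75 with PGL-1::GFP, and 2.17 and 26.5 with GFP, above 1 in each library. By the median gene, on the log2(CPM + 10) scale, the ratio was 5.996 in MEG-3::GFP replicate 2. It was 6.088 in PGL-1::GFP replicate 2 and 2.184 in GFP replicate 1. In MEG-3::GFP replicate 1, PGL-1::GFP replicate 1 and GFP replicate 2 the median of both gene groups was 0 reads. The median ratio was therefore 1 by construction in those libraries and cannot compare the gene groups there. On the log2 scale the ratio averaged 3.16 ± 0.0323 with MEG-3::GFP, 3.04 ± 0.822 with PGL-1::GFP and 3.38 ± 2.45 with GFP (SD, n = 2 each). The difference was -0.22 for MEG-3::GFP minus GFP, -0.35 for PGL-1::GFP minus GFP and 0.12 for MEG-3::GFP minus PGL-1::GFP, each with p = 1 in a two-sided exact permutation test, before and after adjustment over the 3 comparisons. The first 2 turned positive, to 1.51 and 1.38, without GFP replicate 2. Without the member with the most reads of each group (atp-2 and mrps-5) the difference for MEG-3::GFP minus PGL-1::GFP was 0.89 (p = 0.333 in the same exact test). The genes differ in length: the median span from start to end was 1976.5 bp for respiratory members, 1128 bp for mitochondrial ribosome members and 2807 bp for the other protein-coding genes with a read. Per kb of span the ratio was 9.74 and 6.30 with MEG-3::GFP, 14.4 and 4.18 with PGL-1::GFP, and 2.88 and 17.2 with GFP, so it stayed above 1 in each library.

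Nearly all members were read somewhere, and how many were read differed widely between libraries. A read was found in any library for 82 of 86 members (95.3%), all 20 respiratory genes among them, against 42.3% of the 19633 protein-coding genes in the table. Reads in both libraries of a group were found for 13 members with MEG-3::GFP, 7 with PGL-1::GFP and 7 with GFP. Only 2 members, atp-2 and ucr-1, had a read in all 6 libraries. Respiratory members with a read numbered 5 and 17 of 20 with MEG-3::GFP, 3 and 20 with PGL-1::GFP, and 11 and 7 with GFP. Mitochondrial ribosome members with a read numbered 10 and 52 of 66 with MEG-3::GFP, 6 and 47 with PGL-1::GFP, and 33 and 3 with GFP. Of the 8217 other protein-coding genes with a read in any library, 36.4% and 74.5% had one with MEG-3::GFP, 12.1% and 86.5% with PGL-1::GFP, and 48.5% and 22.1% with GFP.

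**Figure D4:**
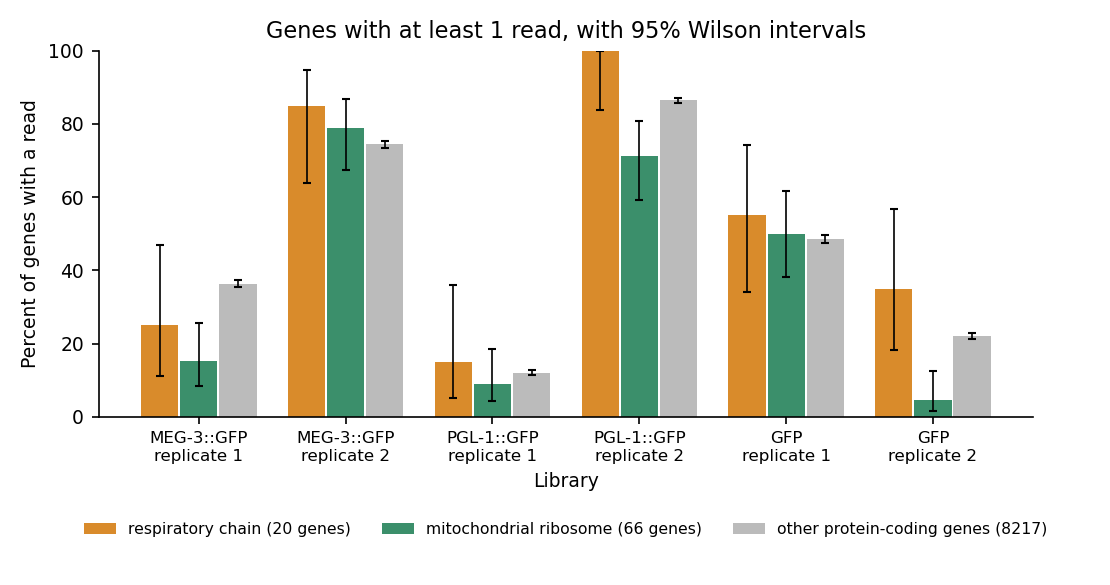
Percent of the 20 respiratory chain genes, of the 66 mitochondrial ribosome genes and of 8217 other protein-coding genes (those with a read in any library) that had at least 1 read in each library; whiskers are 95% Wilson intervals. All 3 groups are low in MEG-3::GFP replicate 1 and PGL-1::GFP replicate 1 and high in replicate 2, and in MEG-3::GFP replicate 1 the 15.2% of mitochondrial ribosome genes lies below the 36.4% of other genes.

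The 2 MEG-3::GFP libraries, close in depth, differed in which members they held. Of the 69 members read in replicate 2, 56 were at 0 in replicate 1 (81.2%), 12 of 17 respiratory genes and 44 of 52 mitochondrial ribosome genes, against 53.9% of the other protein-coding genes read in replicate 2. Replicate 1 was not much shallower than replicate 2, and it placed its reads on fewer genes, with a median of 41 reads per other protein-coding gene read, against 18 in replicate 2. For 20 of these members the count in replicate 2 was high enough that the lower end of its 95% Poisson interval, scaled to the depth of replicate 1, was above 3 reads (35.7% of the 56). The same held for 1468 of 3301 other protein-coding genes at 0 in replicate 1 (44.5%). The 20 members included cco-1, cco-2, cox-10, nuo-1, nuo-3, nuo-6, mrpl-15 and mrps-35.

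**Figure D5:**
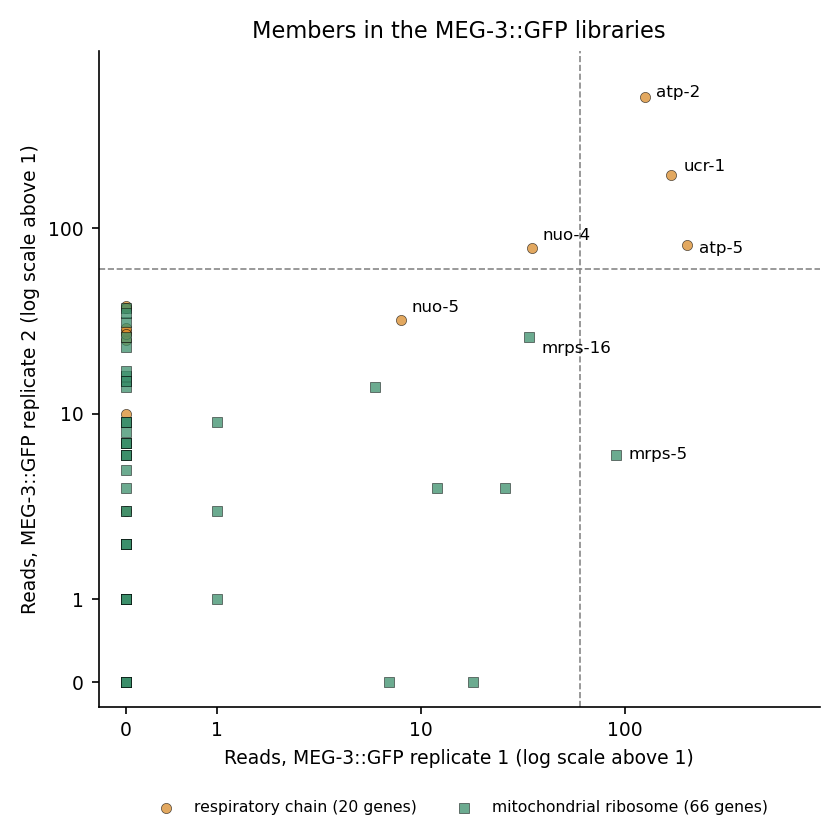
Reads of the 86 members in MEG-3::GFP replicate 1 (x axis) and replicate 2 (y axis), both linear up to 1 read and logarithmic above, with dashed lines at 60 reads. atp-2, ucr-1 and atp-5 lie past 60 reads on both axes, nuo-4 and mrps-5 on 1 axis each, and 56 members stand on the left edge with reads in replicate 2 only.

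Across all genes, edgeR's quasi-likelihood test kept 2033 genes after its filter, which asks for a minimum CPM in at least 2 libraries of any group. Among them were 9 members: atp-2, atp-3, atp-4, atp-5, ucr-1, nuo-4, nuo-5, cco-2 and mrpl-45. The other 77 members did not pass that filter, mrps-5 and mrps-16 among them, and were not tested. No member passed an adjusted p of 0.05 for MEG-3::GFP over GFP, PGL-1::GFP over GFP or MEG-3::GFP over PGL-1::GFP, and none had an unadjusted p under 0.05. The share of all tested genes called was 0% in each of the 3 comparisons, so the test separated no gene, member or not, at the spread of these libraries, and levels without a call may still differ. DESeq2, run as an alternative, called 0 members in each comparison too, while over all genes it called 44 for MEG-3::GFP over GFP and 2 for MEG-3::GFP over PGL-1::GFP. Its lowest unadjusted p among members was 0.0326, for ucr-1 in PGL-1::GFP over GFP. For MEG-3::GFP over GFP the fold changes of the 8 respiratory genes ran from a log2 value of -3.81 for atp-4 to 3.60 for ucr-1, 4 above 0 and 4 below, with a median of 0.32. The median over all 2033 genes was 0.73 with edgeR's scaling and 0.25 with library size alone. For PGL-1::GFP over GFP the respiratory genes had 5 above 0 and 3 below with a median of 0.53, against -0.046 over all genes. The comparisons share the GFP libraries and are not independent of each other.

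Without a model, CPM did not overlap between groups for a few members. Of the 86, 4 members (4.65%) stood above both GFP libraries in CPM in both MEG-3::GFP libraries (ucr-1, mrps-16, mrps-25 and mrpl-46), against 12.3% of genes with a read, and 3 (3.49%) stood below both (mrpl-24, mrpl-49 and mrps-18A), against 4.73%. For PGL-1::GFP, 3 members were higher than GFP in this way (ucr-1, mrps-28 and mrpl-46), against 2.61% of genes, and 3 lower (again mrpl-24, mrpl-49 and mrps-18A), against 4.53%. All but ucr-1 of the higher members had 0 reads with GFP, where 3 reads are 113 and 214 CPM. With MEG-3::GFP, mrps-25 and mrpl-46 lay under both levels, and mrps-16 exceeded only the lower, in replicate 1. With PGL-1::GFP, mrps-28 lay under both, as did mrpl-46 in replicate 2. So these counts do not show that these members exceeded GFP. The 3 lower members were at 0 in PGL-1::GFP replicate 1, where 3 reads are 142 CPM. Between the tagged proteins, 3 members stood higher in both libraries of MEG-3::GFP than in both of PGL-1::GFP (atp-5, mrps-16 and mrpl-2), against 10.2% of genes, and 4 lower (mrpl-46, mrps-26, mrps-28 and mrps-34), against 1.93%. Apart from ucr-1 and atp-5, these members had at most 35 reads in a library, and several had far fewer. With MEG-3::GFP against PGL-1::GFP, mrps-26 had 1 and 1 against 1 and 2 reads. In the same order, mrps-34 had 0 and 1 against 3 and 1, and mrps-28 had 0 and 5 against 1 and 6. The order of these genes in CPM rests on a few reads and on the smaller totals of the PGL-1::GFP libraries. The 3 members lower than GFP had at most 9 reads over both GFP libraries. mrps-18A shares 55 bp with iglr-2.

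The members were spread over all 6 chromosomes. Chromosome III held 27 of the 86 (31.4%), with 13.2% of the protein-coding genes, and chromosome X held 2 (2.33%), with 13.6%. Of the 3 members at 60 reads in both MEG-3::GFP libraries, atp-2 and ucr-1 lie on chromosome III and atp-5 on chromosome V. Within 10 kb of each other lay atp-2 and mrps-26, mrpl-1 and mrps-24, and mrps-2 and mrpl-4. atp-2 and mrps-26, 4080 bp apart, had very different counts, since mrps-26 had 1 and 1 reads with MEG-3::GFP, 1 and 2 with PGL-1::GFP, and 2 and 0 with GFP. The spans of 28 members overlapped another annotated gene, in 24 cases a protein-coding one.

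Genes of the same organelle with other names were read as well. Their counts below are raw reads, and the GFP libraries held 26531 and 14040 reads against 225609 and 280007 with MEG-3::GFP. A higher count with MEG-3::GFP is thus not by itself a higher share of reads. Of 26 further respiratory genes, 24 had a read and 2 reached 60 reads in both MEG-3::GFP libraries, against 7.09% of all genes with a read. None did so with PGL-1::GFP, against 0.194%. The 2 were cyc-1, the cytochrome c1 subunit of complex III (85 and 111 reads with MEG-3::GFP, 37 and 37 with PGL-1::GFP, 9 and 21 with GFP), and nduf-11, an accessory subunit of complex I (68 and 75 reads with MEG-3::GFP, 0 and 15 with PGL-1::GFP, 3 and 0 with GFP). isp-1, the Rieske iron-sulfur protein of complex III, had 83 and 45 reads with MEG-3::GFP, 0 and 21 with PGL-1::GFP, and 6 and 6 with GFP. In GFP replicate 2, 13 reads were 926 CPM and 5 reads were 356 CPM. The 21 reads of cyc-1 and 6 of isp-1 there exceeded their mean with MEG-3::GFP (387 and 264 CPM). In GFP replicate 1 both genes lay below that mean. The 26 genes took 0.198% and 0.228% of reads with MEG-3::GFP, 0.189% and 0.217% with PGL-1::GFP, and 0.177% and 0.627% with GFP. Of 5 mitochondrial translation factors, 1 reached 60 reads in both MEG-3::GFP libraries, beside the same 7.09% of genes with a read. It was tufm-1, an elongation factor that brings tRNAs to the mitochondrial ribosome, with 267 and 97 reads. It had 0 and 7 reads with PGL-1::GFP and 4 and 1 with GFP. tufm-2 had 8 and 35 reads with MEG-3::GFP, 0 and 3 with PGL-1::GFP, and 2 and 0 with GFP, and gfm-1, the translocation factor, had 1 and 5 with MEG-3::GFP, 0 and 11 with PGL-1::GFP, and 1 and 0 with GFP. The 5 translation factors took 0.122% and 0.0496% of reads with MEG-3::GFP, 0% and 0.0259% with PGL-1::GFP, and 0.0264% and 0.0142% with GFP.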

How the data were processed

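The deposited values are raw read counts per gene in 6 iCLIP libraries, which the authors made by trimming reads, aligning them to the ws235 genome with HISAT2 (version 2.1.0 in the submitters' processing notes), removing PCR duplicates and counting with HTSeq. The HTSeq version, its options and the annotation are not given in the sources used here. All 6 sample columns of the table were used. The 438 identifiers on several rows (of 47085 rows) had the same counts on each and were used once. Gene types, positions and spans came from RefSeq (WBcel235) by sequence name, which matched all 86 members.

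CPM, shares and exact permutation tests were computed with Python 3.11.15, pandas 2.3.3, numpy 2.4.6 and SciPy 1.17.1, and figures with matplotlib 3.10.9. Groups were compared with edgeR 4.0.16 in R 4.3.3 (TMM scaling, its default filter by group, quasi-likelihood fit of all 6 libraries together, Benjamini-Hochberg adjustment over all genes tested), with DESeq2 1.42.0 as an alternative. In simulated counts the edgeR test recovered large changes at a low dispersion and none at the dispersion estimated from these libraries, so it had little power here. The SE beside a fold change was taken from the test (the fold change over the root of F). Whether libraries of 1 group came from separate cultures is not stated for each group, so p-values measure the spread between these libraries. The GFP libraries carry another series of library names than the tagged ones; if the names mark a batch, batch and control cannot be told apart.

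The members, gene lists and tests were chosen with earlier results of these data known. Every respiratory member is named; mitochondrial ribosome members are named for the 5 highest mean CPM in MEG-3::GFP, the 3 highest in PGL-1::GFP and in GFP, and others only where a count of 5 or fewer or an overlap singles them out after their values were seen. Of each other list, the 3 genes with the highest mean CPM in MEG-3::GFP are named. No sequences are shown, because the reference used here holds gene positions only.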

Additional observations from a re-analysis of the deposited data

How the results depend on the processing

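edgeR and DESeq2 called 0 members under every alternative run (library size alone, no filter, each library left out, only the 4 libraries compared, a replicate block, or DESeq2), and edgeR called 0 genes over the whole table except 2 for MEG-3::GFP over GFP with only the 4 libraries compared, so these zeros say nothing about stability. At most 2 members of a comparison had an unadjusted p under 0.05 (PGL-1::GFP over GFP without PGL-1::GFP replicate 2). With counts scaled to the median library total, 0 members reached 60 reads in both libraries of either tagged protein. In MEG-3::GFP, 5 members reached it in either library, and 5 in both by RefSeq symbol (3 as reported), while 1 library alone gave 4 with either library left out. In PGL-1::GFP, 0 reached 120 reads and 1 library alone gave 1. The difference in log2 ratio of respiratory to mitochondrial ribosome genes for MEG-3::GFP minus GFP was 0.15 per kb of span, 0.11 without the member with the most reads of each group, 0.73 from medians of log2(CPM + 10) and 0.20 by RefSeq symbol, and -1.96 to 1.51 with 1 library left out. For PGL-1::GFP minus GFP it was 0.14 per kb of span, 0.74 from medians and -0.78 without the member with the most reads of each group, and -2.08 to 1.38 with 1 library left out. For MEG-3::GFP minus PGL-1::GFP it was -0.011 from medians, 0.015 per kb of span, 0.37 by RefSeq symbol and 0.89 without the member with the most reads of each group, and -0.46 to 0.71 with 1 library left out. The respiratory share for MEG-3::GFP minus GFP was -0.0126 points of the protein-coding total and -0.00955 points without atp-2, and -0.0595 to 0.0983 with 1 library left out. The mitochondrial ribosome share ranged from -0.195 to 0.0894 points with 1 library left out, and from -0.0946 to 0.190 points for PGL-1::GFP minus GFP. The log2 fold change of atp-2 for MEG-3::GFP over GFP was -0.031 with DESeq2 and -0.35 to 1.501 with 1 library left out, the lowest without MEG-3::GFP replicate 2. That of atp-5 for PGL-1::GFP over GFP was 0.021 without MEG-3::GFP replicate 2, 0.84 without PGL-1::GFP replicate 1 and 7.47 without GFP replicate 2, where the remaining GFP library had 0 reads, and its lowest value was -1.58, without PGL-1::GFP replicate 2. That of ucr-1 stayed between 3.40 and 4.08 (MEG-3::GFP over GFP) and 2.46 and 4.91 (PGL-1::GFP over GFP) with 1 library left out. The cause of these changes was not tested. The alternatives per kb of span, the ratios and shares by RefSeq symbol, the replicate block and the shares of PGL-1::GFP minus GFP and MEG-3::GFP minus PGL-1::GFP were added after seeing the data, and the one per kb of coding sequence was not run because coding lengths were not at hand. The deposited columns are named first and second within each group, and no label says that these ordinals mark a shared batch. Deviations of equally named libraries from their group means correlated at 0.048 (MEG-3::GFP and PGL-1::GFP), -0.054 (MEG-3::GFP and GFP) and 0.19 (PGL-1::GFP and GFP) over 2033 genes, so the ordinals were not taken as pairs, and with them as a replicate block edgeR called 0 members and 0 genes in each comparison, 0 members having an unadjusted p under 0.05. Depth limits the small libraries most: 3 reads are 142 CPM in PGL-1::GFP replicate 1 and 214 CPM in GFP replicate 2.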

Other observations

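Among other mitochondrial genes, 12 and 16 of 17 listed genes of the citrate cycle had a read in the 2 MEG-3::GFP libraries. All 17 had a read in some library, and 4 reached 60 reads in both MEG-3::GFP libraries (ogdh-1, mdh-2, aco-2 and idha-1) and 0 with PGL-1::GFP. Of all genes with a read, 7.09% did so with MEG-3::GFP and 0.194% with PGL-1::GFP. The citrate cycle list took 0.492% and 0.424% of reads with MEG-3::GFP, 0.00472% and 0.271% with PGL-1::GFP, and 0.245% and 0.306% with GFP. Counts of single genes below are raw reads, and the GFP libraries held 26531 and 14040 reads against 225609 and 280007 with MEG-3::GFP. ogdh-1, a subunit of the 2-oxoglutarate dehydrogenase complex, had 287 and 249 reads with MEG-3::GFP, 0 and 29 with PGL-1::GFP, and 5 and 0 with GFP. mdh-2, malate dehydrogenase, had 200 and 147 with MEG-3::GFP, 0 and 32 with PGL-1::GFP, and 5 and 15 with GFP. aco-2, aconitase, had 108 and 187 with MEG-3::GFP, 0 and 27 with PGL-1::GFP, and 5 and 14 with GFP. Of 17 genes of protein import and mitochondrial chaperones, 16 had a read and 2 reached the threshold in both MEG-3::GFP libraries, against the same 7.09% of genes with a read. The chaperone hsp-6, the mitochondrial Hsp70, had 358 and 260 reads with MEG-3::GFP, 1 and 35 with PGL-1::GFP, and 36 and 0 with GFP, and tin-44, of the import motor, had 83 and 86 with MEG-3::GFP, 1 and 8 with PGL-1::GFP, and 7 and 12 with GFP. The chaperonin hsp-60 had 28 and 214 with MEG-3::GFP, 1 and 57 with PGL-1::GFP, and 22 and 0 with GFP. The 17 import and chaperone genes took 0.298% and 0.281% of reads with MEG-3::GFP, 0.0142% and 0.191% with PGL-1::GFP, and 0.351% and 0.178% with GFP.

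A further 15 genes carried a symbol with one of the prefixes in RefSeq only, and 2 of them, atp-1 and mrpl-44, reached 60 reads in both MEG-3::GFP libraries, against 7.09% of genes with a read. cox-4, a structural subunit of complex IV, had 8 and 64 reads with MEG-3::GFP (35.5 and 229 CPM), 0 and 21 with PGL-1::GFP (0 and 227 CPM), and 0 and 0 with GFP.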
